A study of Mus musculus with 24 samples.

Results

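Distant lost enhancers were candidate enhancers of normal myeloid progenitors that overlapped no region of the leukemia enhancer lists and had no listed leukemia enhancer close by. They were chosen by measured values, namely no overlap with the leukemia lists and the size of the gap to them: the regions of the authors' lost list on mouse autosomes 1 to 19, leaving out chromosome 11 below position 3100000, whose gap to the nearest region of the k+ and k- enhancer lists was at least 12.6 kb, the first step of the 200 bp grid of positions beyond the threshold of the rule. The rule found 567 regions covering 294.2 kb, among 3164 regions of the granulocyte-monocyte progenitor (GMP) list on the same chromosomes and 26592 regions of the GMP, k+ and k- lists together. Of the 3164 GMP regions, 42.8% were lost and 17.9% were distant lost, and of the 1353 lost regions 41.9% were distant. These shares were set by the rule and nothing is read from them.

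The series profiled C57BL/6 mouse bone marrow cells by ChIP-seq, in leukemia stem cells (LSC), mature acute myeloid leukemia cells (mAML) and GMP. Each population had 4 libraries, for H3K27ac, H3K4me1, H3K4me3 and input. LSC were also sampled untreated and after 24, 48 and 72 hours of the p300/CBP acetyltransferase inhibitor A-485 for H3K27ac, P300 and input. The sample titles of this time course write the mark as H2K27ac, which was read here as H3K27ac. The labels' protocols describe the leukemia cells as murine MLL-AF10 cells cultured in medium with serum and WEHI-conditioned medium, without saying whether they were 1 clone or whether the LSC and mAML libraries came from cultures or from animals. Each group held 1 sample, and the files analysed were 6 lists of mm9 positions alone, so depth is unknown for every region.

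GMP are the bone marrow progenitors that give rise to neutrophils and monocytes, and MLL fusion leukemias can arise from cells of this stage. The MLL-AF10 fusion joins the amino-terminal part of the methyltransferase MLL to AF10, a cofactor of the H3K79 methyltransferase DOT1L, and holds progenitor genes active. Enhancers are stretches of DNA that bind transcription factors and raise the output of genes at a distance; H3K4me1 marks them when primed and H3K27ac, deposited by p300 and CBP, when active. Enhancers that act in the same cell often lie in groups, so a lost enhancer can lie next to leukemia enhancers or stand apart from them. Whether these are different kinds of change in a locus was not tested. The labels give neither the rule for calling an enhancer, nor the meaning of short in the names of the lists, nor the population, LSC or mAML, behind k+ and behind k-. The distant lost regions were set beside the 786 lost regions with a leukemia region within 12.4 kb, called nearer lost, and the 1811 GMP regions that overlapped a leukemia region, called kept. Regions are not replicates, so no p-value is given between these classes; 95% Clopper-Pearson intervals cover counting error only, and they are too narrow where regions lie side by side.

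The gap that defined the list ran over more than 2 orders of magnitude, with no break at the threshold. The median gap of distant lost regions to a leukemia region was 51.6 kb, the quartiles were 23.7 and 117.4 kb, and the range was 12.6 to 1572 kb. By size of gap, 148 members lay 12.6 to 25 kb from a leukemia region, 129 up to 50 kb, 118 up to 100 kb, 121 up to 250 kb and 33 up to 500 kb. The last 18 members had no leukemia region within 500 kb. On the other side of the threshold, the median gap of nearer lost regions was 0.8 kb, and 166 of them touched a leukemia region without overlapping it. Around the threshold itself, 39 lost regions had a gap of 12.6 to 15 kb and 47 had a gap of more than 10 and up to 12.4 kb. The 5 members just inside the threshold had gaps of 12.6 to 12.8 kb and lay on chromosomes 1, 2, 16 and 11, with widths of 200 to 1400 bp. The 5 lost regions just outside it had gaps of 12.2 to 12.4 kb and lay on chromosomes 5, 1, 10, 12 and 16, with widths of 400 to 1000 bp. The member just inside on chromosome 11 in band qA1, from 3211001 to 3212400, had 25 other GMP regions within 500 kb, which include those of the left-out start of the chromosome.

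**Figure D1:**
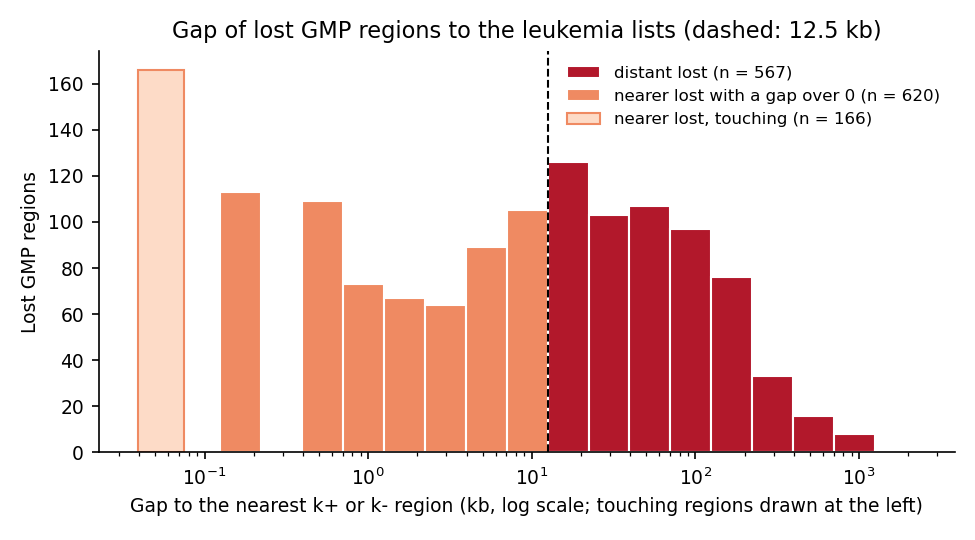
Number of lost GMP regions (vertical axis) by the gap to the nearest k+ or k- region in kb (horizontal axis, log scale), with the 567 distant lost regions in red, the 620 nearer lost regions with a gap in orange and the 166 that touch a leukemia region at the far left. Counts dip between about 1 and 5 kb, rise to the threshold and fall off beyond 100 kb.

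The k- list came closer to the distant lost regions than the k+ list. The median gap was 61.6 kb to k- and 88.8 kb to k+, and among the 530 members without a tie the nearest leukemia region was a k- region for 376, or 70.9% (66.9 to 74.8%). The k- list is also the longer one, holding 59.5% of k+ and k- regions on these chromosomes. That share counts places present in both lists, so it is not on the same scale as a share without ties. Among nearer lost regions without a tie the k- share was 69.8% (66.3 to 73.1%), and among the 708 kept regions without a tie it was 72.5% (69.0 to 75.7%). The interval of distant lost regions overlapped both, so a nearer k- list was not particular to them. Each list alone left further lost regions out of reach: 261 lost regions were at least 12.6 kb from k+ but had a k- region within that distance, and 82 were at least 12.6 kb from k- but had a k+ region within it.

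The leukemia regions that stood nearest to the distant lost regions overlapped a GMP region about as often as leukemia regions do over the autosomes. The nearest merged leukemia region overlapped a GMP region for 67 of 567 members, or 11.8% (9.28 to 14.8%), against 14.8% (12.4 to 17.4%) for nearer lost regions and 10.01% (9.56 to 10.5%) of all merged leukemia regions. It belonged to both k+ and k- for 26.1% (22.5 to 29.9%) of distant lost regions, 29.6% (26.5 to 33.0%) of nearer lost regions and 32.2% (31.5 to 32.9%) of all merged leukemia regions. Its median width was 800 bp for distant lost, 600 bp for nearer lost and 800 bp for all merged leukemia regions. By these 3 measures the neighbours of distant and nearer lost regions had overlapping intervals or adjacent widths on the 200 bp grid to which all positions are rounded. Against all merged leukemia regions, the share in both k+ and k- was lower for distant lost regions, with intervals that stood apart. The nearest regions of the 567 members were 475 distinct leukemia regions, so some were counted more than once.

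Distant lost regions were narrow. Their median width was 400 bp, with quartiles of 200 and 600 bp and a widest region of 4200 bp. The quartiles and median of nearer lost regions were the same, with a widest region of 2600 bp, while kept regions had a median of 600 bp, quartiles of 400 and 1200 bp and a widest region of 7000 bp. A width of 400 bp or less was found in 65.3% (61.2 to 69.2%) of distant lost, 62.6% (59.1 to 66.0%) of nearer lost and 38.8% (36.5 to 41.1%) of kept regions. A width of 1000 bp or more was found in 13.9% (11.2 to 17.1%) of distant lost, 13.5% (11.2 to 16.1%) of nearer lost and 35.3% (33.1 to 37.6%) of kept regions. By size alone a wider region overlaps others more readily and so counts more often as kept; the part of this in the difference from kept regions was not tested.

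**Figure D2:**
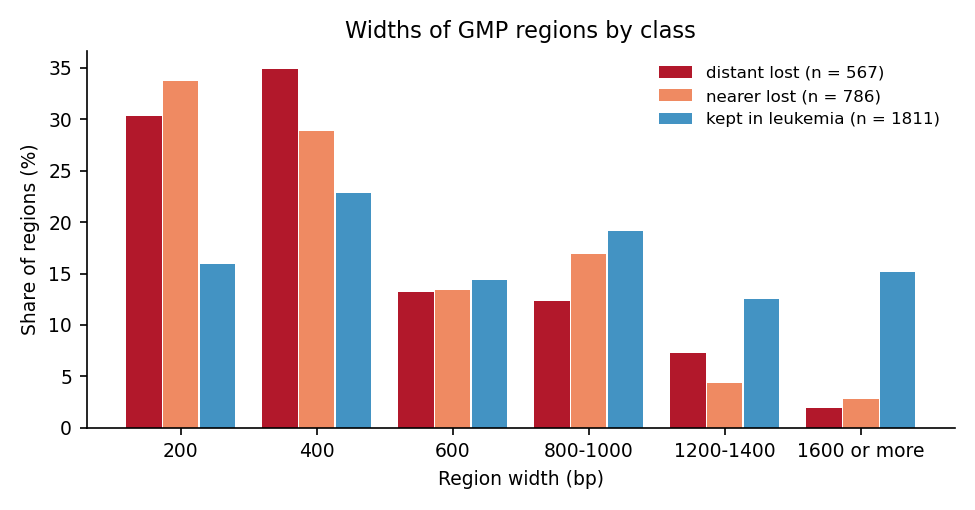
Share of regions in percent (vertical axis) by region width in bp (horizontal axis) for the 567 distant lost, 786 nearer lost and 1811 kept GMP regions. The bars of distant and nearer lost regions follow each other, with 65.3% and 62.6% of regions at 400 bp or less, while 38.8% of kept regions are that narrow.

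Within the list, width did not go with the gap. The median width was 400 bp in each of 7 classes of gap, from 12.6 to 25 kb up to more than 1000 kb, and the mean ranged from 457 to 550 bp. Among all GMP regions the distant lost share fell with width, which follows the loss of narrow regions as a whole: it was 23.7% (20.7 to 26.99%) at 200 bp, 23.6% (20.8 to 26.6%) at 400 bp, 17.0% (13.6 to 20.8%) at 600 bp and 10.5% (8.82 to 12.4%) at 800 bp or more. Among lost regions alone the distant share had no such order. It was 39.4% (34.8 to 44.1%) of lost regions of 200 bp, 46.6% (41.8 to 51.5%) at 400 bp, 41.7% (34.4 to 49.2%) at 600 bp, 34.5% (28.0 to 41.5%) at 800 to 1000 bp and 54.7% (42.7 to 66.2%) at 1200 to 1400 bp. At 1600 bp or more, 11 of 33 lost regions were distant, or 33.3% (18.0 to 51.8%).

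The 10 widest distant lost regions measured 1600 to 4200 bp, and 7 of them lay at least 61.2 kb from any other GMP region. The widest, of 4200 bp, lay on chromosome 1 in band qE2.1 from 108411001 to 108415200. It was 61.0 kb from k+, 21.2 kb from k- and 61.2 kb from the nearest other GMP region. Next were 2400 bp on chromosome 14 in band qC1 from 45290801 to 45293200, and 2200 bp on chromosome 13 in band qA2 from 19311001 to 19313200. The chromosome 14 region was 218.4 kb from k+ and 162.0 kb from k-. The chromosome 13 region had no k+ and 2 k- regions within 500 kb, and its nearest GMP neighbour was 634.0 kb away. A region of 2000 bp on chromosome 14 in band qD2, from 69884001 to 69886000, stood near the threshold, 13.2 kb from k+ and 17.6 kb from k-.

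The other 6 of the 10 widest measured 1600 or 1800 bp. Those of 1800 bp were on chromosome 1 in band qH1 from 158640001 to 158641800, on chromosome 7 in band qB4 from 53644801 to 53646600, on chromosome 12 in band qC3 from 77462601 to 77464400, and on chromosome 17 in band qE4 from 84385401 to 84387200. The chromosome 1 and chromosome 7 regions were isolated, with gaps to the leukemia lists of 210.2 and 204.4 kb and gaps to the nearest GMP region of 237.6 and 466.2 kb. The chromosome 12 and chromosome 17 regions instead had another GMP region 0.4 and 2.2 kb away. The chromosome 17 region also lay in the busiest surroundings of the 10, with 20 k+ and 25 k- regions within 500 kb, although none was closer than 74.0 kb. One region of 1600 bp was on chromosome 9 in band qA2 from 14821801 to 14823400, 17.8 kb from k- but 258.2 kb from k+. Another was on chromosome 11 in band qC from 87479401 to 87481000, 44.8 kb from k+ and 51.6 kb from k-. A further member of 1600 bp, on chromosome 17 in band qC from 46966001 to 46967600, tied in width but came later in chromosome order.

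The 5 members farthest from the leukemia lists were 200 to 1000 bp wide. The largest gap was 1572 kb, for a region of 1000 bp on chromosome 10 in band qB3 from 55834801 to 55835800, with its nearest other GMP region 1978 kb away. A pair of 200 bp regions on chromosome 7 in band qD1, at 79405801 to 79406000 and 79406601 to 79406800, lay 1189.6 and 1188.8 kb from the leukemia lists and 0.6 kb from each other. The next were 600 bp on chromosome 8 in band qB1.1 from 46419001 to 46419600, with a gap of 1004.8 kb, and 200 bp on chromosome 4 in band qC6 from 99892001 to 99892200, with a gap of 953.4 kb. Within 500 kb of these 5 regions there were 0 k+ and 0 k- regions.

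Most distant lost regions had leukemia regions within 500 kb. No k- region lay within 500 kb of the centres of 20 of them, or 3.53% (2.17 to 5.40%), and no k+ region for 45, or 7.94% (5.85 to 10.5%). In the ring from 100 to 250 kb around their centres there were on average 11.9 k- and 7.84 k+ regions per Mb. The same figures were 12.6 and 9.11 per Mb around nearer lost regions and 13.7 and 9.62 per Mb around kept regions. All were above the averages over these autosomes, which were 5.52 k- and 3.76 k+ regions per Mb of assembled sequence, unsequenced bases included. The number of k- regions in that ring had a median of 3 and quartiles of 1 and 6 in each of the 3 classes. The number of k+ regions in it had a median of 1 for distant lost, 2 for nearer lost and 2 for kept regions. No k+ region lay in the ring for 33.0% (29.1 to 37.0%) of distant lost, 28.5% (25.4 to 31.8%) of nearer lost and 26.7% (24.7 to 28.8%) of kept regions. The intervals of distant lost and kept regions stood apart, and those of distant and nearer lost regions overlapped. This ring was not free of the rule. The 33 members with gaps of 250 to 500 kb and the 18 with larger gaps could have no leukemia region in it. Nearer lost and kept regions had no gaps that large. The part of the rule in these differences was not tested. Between 250 and 500 kb the means were 8.97 k- and 6.48 k+ regions per Mb around distant lost, 9.22 and 6.52 around nearer lost, and 9.63 and 6.57 around kept regions.

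Closer in, the classes stood further apart. Between 50 and 100 kb there were 11.4 k- and 8.15 k+ regions per Mb around distant lost, 19.2 and 13.3 around nearer lost, and 21.4 and 15.2 around kept regions. At this distance 55.03% (50.8 to 59.2%) of distant lost regions had no k- region, against 34.9% (31.5 to 38.3%) of nearer lost and 31.03% (28.9 to 33.2%) of kept regions. How far the rule, which left out leukemia regions within 12.4 kb, also set the numbers at this distance was not tested.

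**Figure D3:**
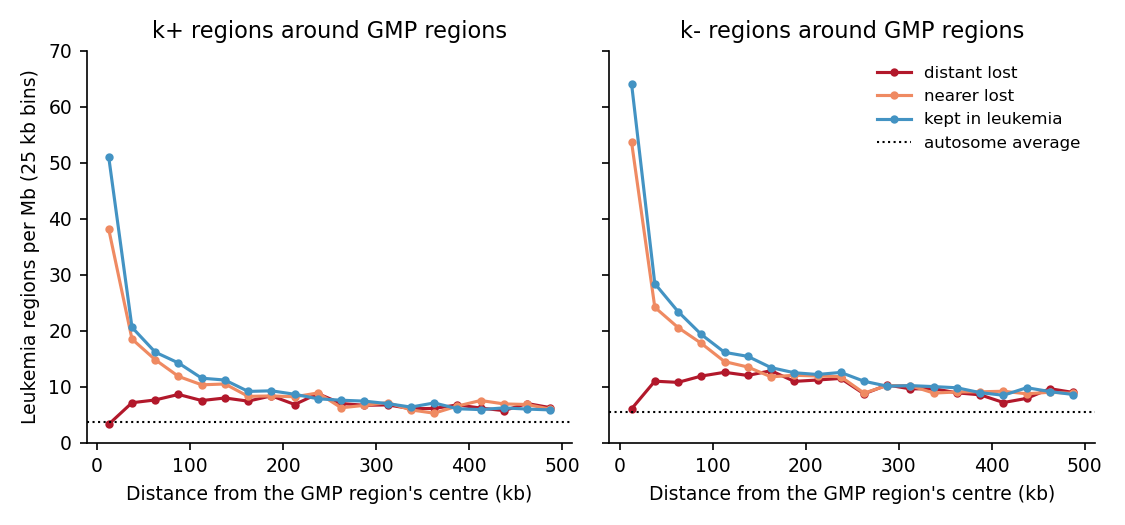
Mean number of k+ (left) and k- (right) regions per Mb (vertical axis) in 25 kb bins of distance from the centre of a GMP region in kb (horizontal axis) for distant lost, nearer lost and kept regions, with the autosome average dotted. The red line of distant lost regions starts low by the rule, meets the others at about 200 kb and stays above the average out to 500 kb.

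Most stretches between neighbouring leukemia regions that held a distant lost region held 1 of them. There were 462 stretches that held a member, with a median length of 287.7 kb and quartiles of 131.65 and 681.05 kb. The median was 14.2 kb over all 16610 stretches between 2 leukemia regions. Among the 462 were stretches at the start of chromosome 1, up to 4763200, and at the end of chromosome 10, from 129757001. A leukemia region bounded these on 1 side only, and the 16610 include no stretch of that kind. A stretch between 2 leukemia regions can hold a member only where at least 12.6 kb are left on each side of it. Short stretches were therefore barred by the rule, and the shortest of the 462 measured 26.4 kb. Of these, 378 held 1 distant lost region, 65 held 2, 17 held 3 and 2 held 4. Long leukemia-free stretches with no distant lost region were more common: of 1002 stretches of at least 500 kb between leukemia regions, 147 held at least 1, or 14.7%, and of 540 of at least 1000 kb, 78 did, or 14.4%. Both stretches with 4 members were on chromosome 17; they were picked after their values had been seen. From 51360601 to 53627600, in band qC, 4 members of 200 to 400 bp lay 176.0 to 339.8 kb from their nearest GMP neighbour. From 84247801 to 84461200, in band qE4, 4 members of 200 to 1800 bp lay close together, including the 1800 bp region named above.

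Distant lost regions had another GMP region close by less often than the other classes, a difference that the rule set in part. Another GMP region lay within 12.4 kb of 104 of 567 distant lost regions, or 18.3% (15.2 to 21.8%), against 43.1% (39.6 to 46.7%) of nearer lost and 41.3% (39.02 to 43.6%) of kept regions. Kept regions overlap a leukemia region, so the rule keeps them at least about that far from every member, and that all 104 members with such a neighbour had a lost one was largely fixed by the rule. Counting lost neighbours alone, the shares were 18.3% (15.2 to 21.8%) for distant lost and 23.2% (20.2 to 26.3%) for nearer lost regions. Each nearer lost region has a leukemia region within 12.4 kb and members have none, so the rule bars many such pairs too. Neither these shares nor those within 1 kb are therefore free of the rule. Within 1 kb a lost neighbour was found for 12.52% (9.91 to 15.5%) of distant and 14.1% (11.8 to 16.8%) of nearer lost regions.

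Some of the close neighbours were adjacent pieces on the grid of positions. A gap of exactly 200 bp, 1 step of the grid, separated 47 distant lost regions from another GMP region, or 8.29% (6.15 to 10.9%), against 11.7% (9.54 to 14.2%) of nearer lost and 7.12% (5.98 to 8.41%) of kept regions. The interval of distant lost regions overlapped those of both other classes. Joined where no more than 12.4 kb apart, the 567 members formed 468 single regions, 39 pairs and 7 groups of 3, so that 99 members, or 17.5% (14.4 to 20.8%), lay in groups. Members no more than 1 kb apart, when joined first, became 531 loci, and of these 5.84% (4.001 to 8.18%) lay in groups at the same distance. Whether such pieces are separate enhancers or parts of 1 was not tested, since the lists hold no signal.

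The 7 groups of 3 spanned 1.4 to 17.6 kb, lengths that the joining distance limits. In order of chromosome, the first lay on chromosome 1 in band qH3 from 172090801 to 172094600, with regions of 400, 200 and 200 bp, 118.4 kb from k+ and 111.0 kb from k-. The next lay on chromosome 6 in band qB3 from 52621401 to 52628600, with regions of 400, 400 and 200 bp, 32.8 kb from k+ and 20.2 kb from k-. On chromosome 7 in band qF3, from 139767001 to 139768400, 3 regions of 200, 400 and 400 bp lay within 1.4 kb. Chromosome 16 held 2 groups, in band qB5 from 45223801 to 45233200 and in band qC4 from 94443801 to 94445600. The first of these was 73.8 kb from k+ and 61.8 kb from k-, while the other was 124.2 kb from k+ but 16.4 kb from k-. The remaining groups, on chromosome 17 in band qE4 and chromosome 19 in band qC3, covered 3200 and 1600 bp within spans of 17.6 and 13.8 kb.

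Distant lost regions were spread over all 19 autosomes in step with the GMP list. Chromosome 1 held the most, 47, and chromosome 18 the fewest, 15. The share of a chromosome's GMP regions that were distant lost was highest on chromosome 17, with 35 of 149 or 23.5% (16.9 to 31.1%), and lowest on chromosome 6, with 28 of 206 or 13.6% (9.23 to 19.04%). The interval of every one of the 19 chromosomes contained the share over all of them, 17.9%. The chromosomes were therefore not told apart from this share at these counts.

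**Figure D4:**
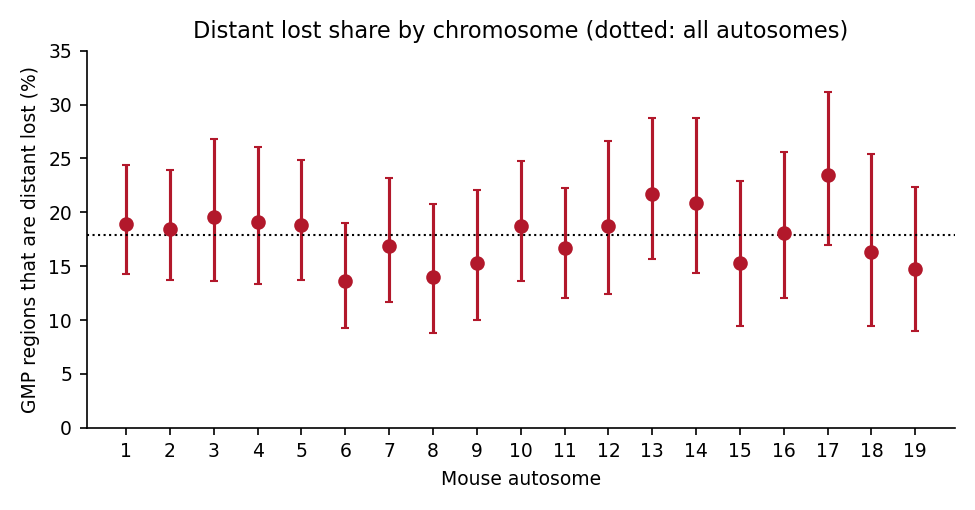
Share of GMP regions that were distant lost, in percent (vertical axis), for each of the 19 mouse autosomes (horizontal axis), with 95% Clopper-Pearson intervals and the share over all of them, 17.9%, dotted. Points run between 13.6% on chromosome 6 and 23.5% on chromosome 17, and every interval crosses the dotted line.

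Chromosome bands gave a property of the genome that the rule had not used. Giemsa dye stains gene-poor, late-replicating bands dark and leaves gene-rich bands unstained. Bands of the 3 darker classes of the mm9 band table held 221 of 567 distant lost regions, or 39.0% (34.9 to 43.1%), against 31.4% (28.2 to 34.8%) of nearer lost and 33.4% (31.2 to 35.6%) of kept regions, and 42.3% of autosome length. Unstained bands held 42.2% (38.05 to 46.3%) of distant lost, 48.1% (44.5 to 51.7%) of nearer lost and 47.4% (45.1 to 49.7%) of kept regions, and 41.2% of autosome length. In the 3 darker classes together, the dark share was thus higher in distant than in nearer lost regions, with intervals that just failed to meet, while the intervals of distant lost and kept regions overlapped. In unstained bands the intervals of distant and nearer lost regions overlapped. In the darkest bands alone they overlapped too, with 24.9% (21.4 to 28.6%) of distant lost and 19.1% (16.4 to 22.0%) of nearer lost regions, both below the 31.2% of autosome length. By chromosome, the dark share was higher in distant than in nearer lost regions on 13 of 19 autosomes.

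Of lost regions in the darkest bands, 48.5% (42.6 to 54.4%) were distant, against 45.1% (37.5 to 52.8%) in bands of the next common dark class and 38.7% (34.9 to 42.7%) in unstained bands, and these 3 intervals overlap. There were 4.80 merged leukemia regions per Mb in the darkest bands, 7.35 per Mb in the next common dark class and 7.71 per Mb in unstained bands. The part of leukemia region density in the difference between bands was not tested. Within the list, the dark share was 34.5% (26.8 to 42.7%) at gaps of 12.6 to 25 kb, 38.8% (30.1 to 48.1%) at 100 to 250 kb and 57.1% (28.9 to 82.3%) for the 14 members at 500 to 1000 kb, and these intervals overlap.

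**Figure D5:**
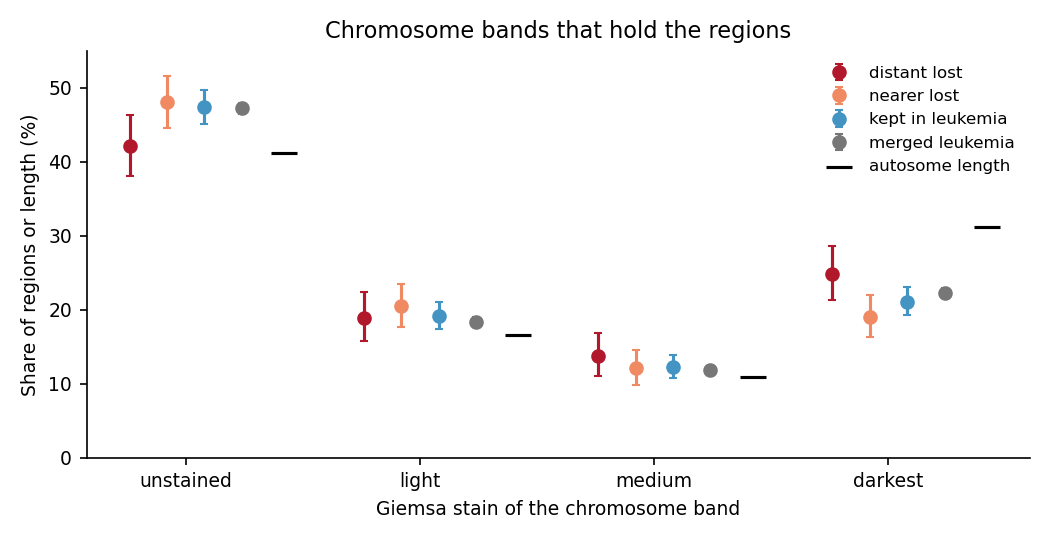
Share of regions in percent (vertical axis) by Giemsa stain of the chromosome band (horizontal axis) for distant lost, nearer lost, kept and merged leukemia regions, with 95% Clopper-Pearson intervals, and the share of autosome length as black dashes. In the darkest bands distant lost regions stand at 24.9%, nearer lost at 19.1% and kept regions at 21.1%, all below the 31.2% of autosome length.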

How the data were processed

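The authors deposited 6 region lists of chromosome, start and end (0 columns of score or count) for the 24 libraries. BWA, Picard, MACS2, HOMER, deepTools and mm9 are named per the submitters' processing notes (settings and enhancer rule: not given in the sources used here). Printed positions count from 1.

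Members had a gap of more than 12500 bp. Gaps were measured edge to edge in Python 3.11.15 (NumPy 2.4.6, pandas 2.3.3) and matched bedtools 2.31.1 for all 1504 lost regions; the code was also tested on simulated data. The k+ and k- lists were merged for nearest neighbours. Clusters joined members no more than 12.5 kb apart. Intervals came from SciPy 1.17.1, chromosome lengths from GenomeInfoDb 1.38.1, bands from circlize 0.4.16 (R 4.3.3), figures from matplotlib 3.10.9. Counts in rings run from midpoint to midpoint.

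The members and all comparisons were chosen with earlier results of these data known. Named are the 10 widest members, the 5 farthest, the groups with most members (all 7 that tied, where up to 5 had been planned) and the 5 regions either side of the threshold. Among equal widths or gaps, regions were taken in order of chromosome and position, which left some of equal value unnamed. Bands, stretches, rings and nearest leukemia regions were added after the lists had been seen. An mm9 genome and annotation were not used here, so genes, sequences and motifs at the regions were not analysed here, nor was read signal.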

Additional observations from a re-analysis of the deposited data

How the results depend on the processing

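No paired analysis was possible because the lists carry no replicates, so none could be left out; sequence, motif and gene settings were not run without an mm9 genome. Of 42 alternative values, 36 stayed close to the reported value, 6 moved and 0 reversed. Close was a wide tolerance: 419 and 828 members both counted as close to 567. Only differences between sets of regions could count as reversed. The 567 members became 290 at a gap of more than 50 kb. Keeping only regions of at least 800 bp in every list gave 223 regions. That setting chose anew among all GMP regions of that width, with gaps to leukemia regions of that width alone. Only 122 of the 567 members were that wide, so the rest of the 223 were not members. The other settings gave 419 to 828, among them 460 regions chosen in the same way at 400 bp or more. Another GMP region lay within 5 kb of 14.8% and within 25 kb of 25.7% of members, by construction of the distance. Joining members within 1 kb, added after the data had been seen, left 58.8% of loci at 400 bp or less and 5.84% in groups of 2 or more. The dark-band excess over nearer lost regions, 7.55 percentage points, was 5.78 points with the darkest bands alone and 7.30 to 10.5 points under the other settings. At 100 to 250 kb, k- density stayed between 10.6 and 12.1 regions per Mb. Without scores in the lists, the part of calling depth in them was not tested.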
